A study of Mus musculus with 12 samples.

Results

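The liver arm of the series asked whether switching on a Nanog transgene changed gene expression in a tissue other than the layered epithelia named in the series title. The comparison set 3 livers labelled TG against 3 livers labelled CTR, chosen by sample title, which makes 6 of the series' 12 arrays. TG mice carried Col1a1tetO-Nanog/+ with Rosa26rtTA/+. CTR mice carried Col1a1+/+ with Rosa26rtTA/+, so both groups held the rtTA activator and differed in no other allele named in the labels. All 6 mice were males of 8 months on a mixed 129Sv/C57BL6 background. All 6 also drank doxycycline at 0.2 mg/ml for 48 h in 7.5% sucrose solution, so drug and sucrose were shared by the groups. The activator sat at Rosa26, a locus active in most tissues, and the transgene was therefore not restricted to hepatocytes. The series design calls the 3 samples of a genotype biological replicates.

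Nanog is a homeodomain transcription factor of pluripotent embryonic cells, where it acts with Pou5f1 and Sox2, and it is not among the factors that define adult hepatocytes. Adult liver consists mostly of hepatocytes, which make plasma proteins and carry out urea, bile acid and lipid metabolism. These tasks are divided along the lobule: hepatocytes near the central vein, under Wnt signalling from vein endothelium, make glutamine, and those near the portal vein make urea. Many liver genes also follow the daily clock, feeding and inflammatory cytokines.

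Each array measured 41174 probes in 1 colour. Values below are log2 signals relative to the 75th percentile of their own array, so that 0 marks the 75th percentile. A probe was detected where the scanner software called it well above background, and a gene was tested where it was detected on all 3 arrays of at least 1 group. This left 21283 of 34335 genes and unnamed probes, 18090 of them detected on all 6 arrays. The share of probes detected ran from 56.5% in CTR3 to 81.8% in TG3, with the other 4 livers between 66.4% and 69.6%. CTR3 was the lowest liver in 5933 of 21239 genes measured on every array and TG3 the highest in 6813, and the part of this in the group differences of dim genes was not tested. Arrays correlated across genes at 0.963 to 0.979 within a group and at 0.960 to 0.982 between groups, so likeness did not follow genotype. The highest correlation joined TG2 and CTR1. Alb, the albumin gene and the defining hepatocyte product, read between 9.75 and 10.16 in the 6 livers, lowest in CTR1, with overlapping groups. Ddx3y, Eif2s3y, Kdm5d and Uty, on the Y chromosome, were detected in all 6 livers and Xist in 0 of 6, which matches the labelled sex.

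No gene passed the test between the TG and CTR livers by limma with Benjamini-Hochberg adjustment: 0 of 21283 reached an adjusted p of 0.05 (0%), and the smallest adjusted p was 0.800. Without adjustment, 855 genes were higher in TG at p under 0.05 (4.02%) and 234 lower (1.10%). In 1795 genes all 3 TG livers lay above all 3 CTR livers (8.43%), and in 607 all 3 lay below (2.85%). The groups of such a gene are called apart below. The lean towards higher values changed with the scaling. The median gene was higher in TG by 0.13 (66.6% of genes higher), against 0.02 with quantile normalization (53.1% higher), which counted 413 genes higher and 397 lower at p under 0.05. Of the 2973 genes detected throughout in TG alone, 95.7% were higher in TG (median 0.67), a direction that their route past the filter favours. Differences below are therefore read against a general shift of 0.13, and none of them passed the adjusted test.

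**Figure D1:**
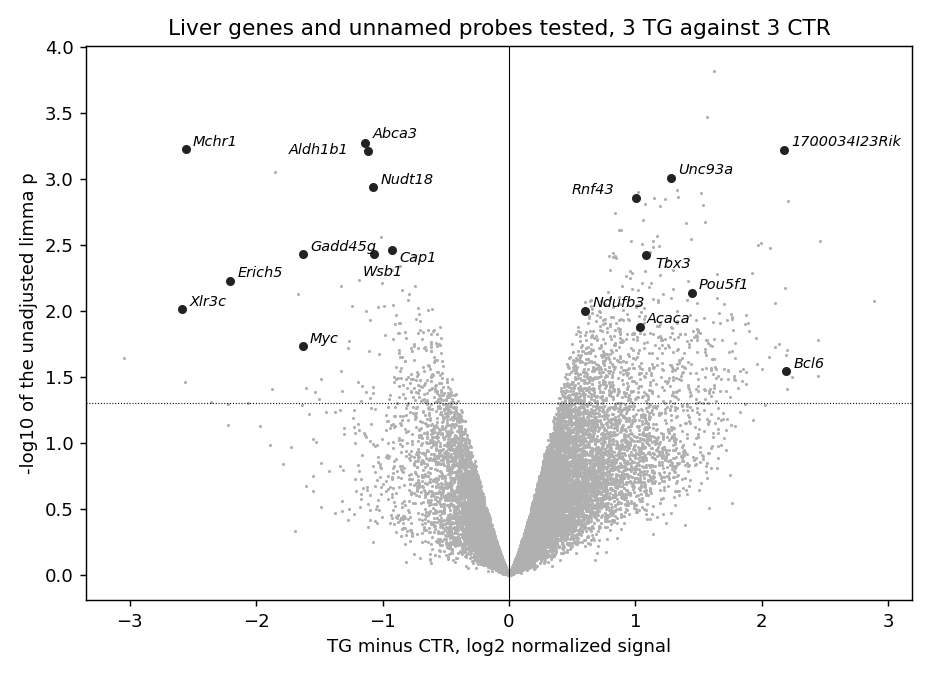
Difference between the groups (x axis, TG minus CTR, log2) against -log10 of the unadjusted limma p (y axis) for the 21283 genes tested. The dotted line marks 0.05, genes named in the text are labelled, and no gene passed the limma test after adjustment.

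The targeted gene itself gave no reading. The only Nanog probe (NM_028016) was well above background on 0 of the 12 arrays of the series, at -6.82, -7.09 and -5.62 in the TG livers and -7.65, -7.59 and -6.28 in the CTR livers. These values overlapped and lay at the background of each array, so they do not check the labels. Whether this probe covers the transcript of the transgene was not checked. Col1a1, the collagen gene whose locus holds the transgene, read -0.27, -0.40 and -1.25 in TG and -0.26, -1.57 and -2.04 in CTR, with overlapping groups (difference 0.65, SE 0.51, limma adjusted p = 0.803). Its dimmer probes differed by 1.02 and 0.84.

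Of 32 pluripotency genes listed, 16 could be tested. Among them 14 were detected in all 6 livers, of which 11 were higher in TG, 5 were apart upward and none downward, with a median difference of 0.30. Of all 18090 genes so detected 62.4% were higher and 7.67% apart upward, with a median of 0.08. The excess depended on scaling. Over the 16 tested the median was 0.06 with quantile normalization, against 0.02 for all genes. In the authors' deposited table it was 0.23, against 0.02. Tbx3, a T-box repressor that stem cells and pericentral hepatocytes share, read 4.49, 3.73 and 4.01 in TG and 3.18, 2.81 and 2.97 in CTR. Its groups did not overlap, with a difference of 1.09 (SE 0.25, limma adjusted p = 0.800), or 2.12-fold. Pou5f1, the octamer-binding partner of Nanog, read -2.71, -3.62 and -2.30 in TG and -4.45, -3.95 and -4.58 in CTR. All TG livers were higher, by 1.45 (SE 0.38), but the signal was dim: the probe passed the detection filter through TG alone, with 2 of 3 CTR livers detected, and other processing moved the difference between 0.53 and 1.82. Rif1, a telomere and replication-timing factor, read -0.59, -0.87 and -0.93 against -1.16, -1.84 and -2.09 (difference 0.90, SE 0.28), and its second probe differed by 0.41. Nr5a2, a nuclear receptor of bile acid synthesis in hepatocytes, read 2.42, 2.46 and 2.35 against 2.12, 2.07 and 1.92. Its difference of 0.38 (SE 0.17) was the narrowest of these and came to 0.00 under another setting. Lefty2 and Utf1 were apart upward too, both below the 75th percentile.

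Klf2, a Krüppel-like factor of endothelium and naive stem cells, went the other way in its brighter probe, at 6.85, 4.93 and 4.80 in TG and 6.29, 7.05 and 6.80 in CTR. TG1 lay among the CTR livers, and the difference was -1.19 (SE 0.57). A second Klf2 probe differed by -0.14, so the probes disagreed. Other factors of the embryonic network could not be tested: Sox2 was detected in 0 of 6 livers and Esrrb, an orphan receptor of naive stem cells, in 4. Gdf3, a ligand made by stem cells, read -3.84, -5.85 and -2.94 in TG and -5.66, -7.50 and -6.21 in CTR, and was detected in 2 livers.

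Genes higher in TG at small unadjusted p included Unc93a, 1700034I23Rik and unnamed transcripts. Unc93a (NM_199252), a membrane protein of the Unc93 family, read 1.28, 1.05 and 1.34 in TG and 0.03, 0.22 and -0.41 in CTR. The groups were apart by more than the spread within either, and the difference was 1.28 (SE 0.23, limma adjusted p = 0.800), or 2.43-fold. The probe A_52_P296074 (BC078460) read 1.57, 1.94 and 1.77 against 0.56, 0.06 and -0.03, a difference of 1.57 (SE 0.23). A_51_P167725 (AK089008) was 1.62 higher (SE 0.21), with a dim signal in all 6 livers. It passed the detection filter through TG alone, with 2 of 3 CTR livers detected. Its difference came to 0.51 in the authors' deposited table and to 0.42 at the lowest. Both transcripts carry no symbol in the tables used. The transcript 1700034I23Rik (NM_028494) was detected in all TG livers and in 0 of 3 CTR livers, at -4.75, -4.40 and -3.98 against -6.21, -7.22 and -6.23. Its difference of 2.17 came to 0.18 in the authors' deposited table and to 0 with a common floor, so no fold is given. A_52_P338266 (ENSMUST00000098674) read 0.81, 1.01 and 1.08 in TG and -3.72, -1.64 and -0.41 in CTR, so the TG livers were alike and the CTR livers were spread widely (difference 2.89, SE 0.78).

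Genes lower in TG included a transporter, a peptide receptor, an aldehyde dehydrogenase and a stress gene. Abca3 (NM_013855), a lipid transporter best known from surfactant-making lung cells, read 1.56, 1.66 and 1.75 in TG and 2.80, 2.96 and 2.62 in CTR. The groups were tight and did not overlap, with CTR 2.20-fold above TG (difference -1.14, SE 0.18, limma adjusted p = 0.800). Aldh1b1 (NM_028270), a mitochondrial aldehyde dehydrogenase, read 1.83, 2.06 and 1.96 against 3.25, 3.01 and 2.94 (difference -1.12, SE 0.18). Nudt18 (NM_153136), a hydrolase of oxidized nucleotides, read -0.18, -0.15 and -0.50 against 0.65, 0.98 and 0.75 (difference -1.07, SE 0.20). Gadd45g (NM_011817), a growth-arrest and stress gene, read 2.88, 3.67 and 2.24 in TG and 4.52, 4.41 and 4.75 in CTR. Here the CTR livers were alike and the TG livers spread out below them, with a difference of -1.63 (SE 0.37). Mchr1, the receptor of melanin-concentrating hormone, read -1.16 and -0.58 in TG2 and TG3 and 1.19, 2.15 and 1.73 in CTR. The TG1 spot was an outlier on its array and was left out, so the difference of -2.56 rests on 2 TG livers. Cap1, an actin-cycling protein, differed by -0.92, Wsb1, a ubiquitin ligase subunit, by -1.07 and Aar2, a splicing factor of the U5 particle, by -0.75. Erich5 was detected in all CTR livers and 0 of 3 TG livers, with a difference of -2.21 that came to -0.85 in the authors' deposited table, -0.60 with a common floor and -0.53 with normexp background correction. Xlr3c, of an X-linked family of near-identical copies that its probe may share, read -2.57, -0.96 and -0.94 against 0.39, 0.38 and 2.51 (difference -2.59, SE 0.72).

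Under the alternatives tried, Unc93a ranged from 1.10 to 1.52, Tbx3 from 0.88 to 1.35, Rnf43 from 0.81 to 1.13, Abca3 from -1.22 to -0.89, Aldh1b1 from -1.18 to -0.88 and Nudt18 from -1.48 to -0.96. Only 1 slide held a TG and a CTR liver, TG3 and CTR2. Within it Unc93a differed by 1.13, Tbx3 by 1.19, Rnf43 by 1.00, Abca3 by -1.21, Aldh1b1 by -1.04 and Gadd45g by -2.17. The groups of these genes were apart, so the sign within the slide was fixed in advance and adds no support. The smallest adjusted p that any alternative gave Abca3, Aldh1b1 or Nudt18 was 0.296.

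**Figure D2:**
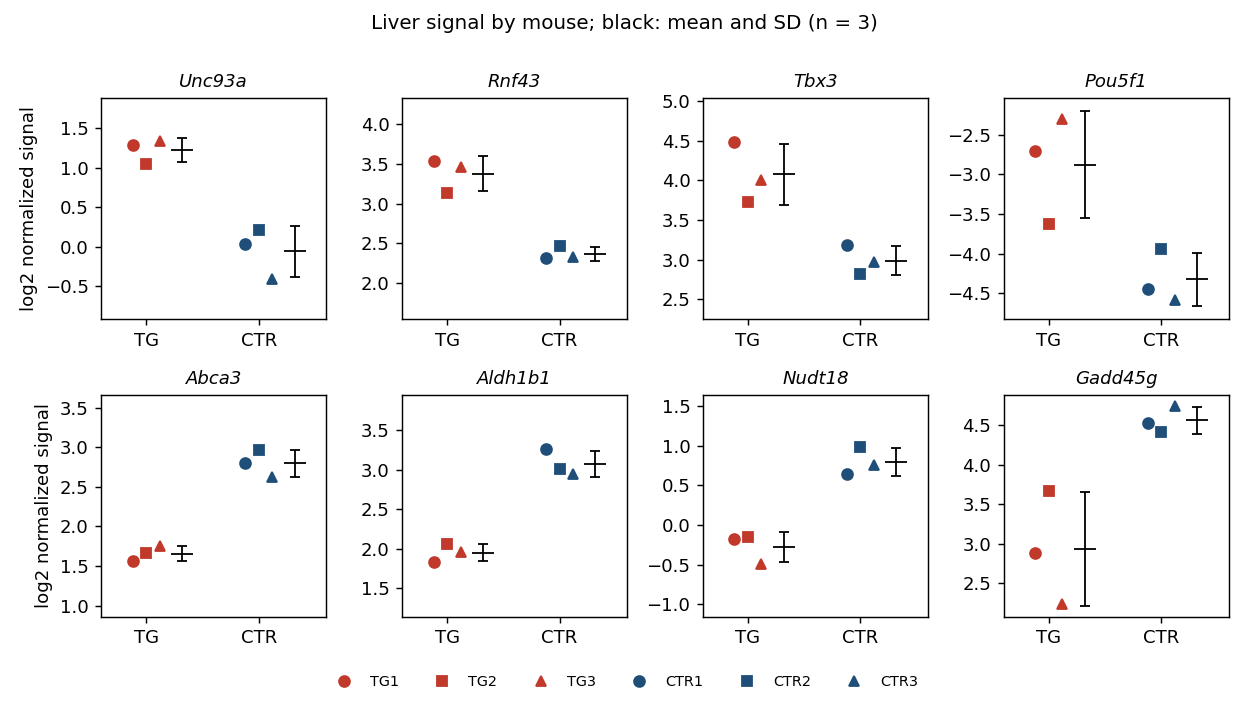
Log2 signal relative to the 75th percentile of the array for 8 genes in each liver; red points are TG, blue points CTR, and circles, squares and triangles are replicates 1, 2 and 3. Black bars give the mean and SD (n = 3): the groups do not overlap in any of the 8 genes, from Unc93a (1.05 to 1.34 in TG, -0.41 to 0.22 in CTR) to Gadd45g (2.24 to 3.67 in TG, 4.41 to 4.75 in CTR).

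Tbx3, Rnf43 and Axin2 are all known targets of Wnt and beta-catenin signalling. A list of 14 such targets, written after these values had been seen, is therefore given as a description only. Of 12 tested, 11 were higher in TG, 6 were apart upward and none downward, with a median of 0.56. Among all genes 66.6% were higher, 8.43% were apart upward and 2.85% downward, with a median of 0.13. The 6 apart were Tbx3, Rnf43 and Axin2, which prompted the list, with Nkd1, Sp5 and, in its brighter probe only, Glul. The counts and the median thus include the genes that led to the list, so their excess over all genes adds no support. Rnf43, the ubiquitin ligase that removes Frizzled receptors as a brake on the pathway, read 3.53, 3.13 and 3.47 in TG and 2.31, 2.47 and 2.32 in CTR. The groups did not overlap, and the difference of 1.01 (SE 0.19, limma adjusted p = 0.800) was several times the spread within CTR. Axin2, a scaffold of the beta-catenin destruction complex and a feedback target, read -0.61, -0.63 and -0.93 against -1.10, -1.75 and -1.46 (difference 0.71, SE 0.23). Nkd1, a Dishevelled antagonist, read 0.96, 0.84 and 1.46 against 0.29, 0.72 and 0.46 (difference 0.60). Sp5, a zinc-finger factor of the same feedback, read 0.37, 0.35 and 0.97 against 0.25, -0.45 and -0.11 (difference 0.67). In each of these the TG livers were higher without exception, although TG2 and CTR2 nearly met in Nkd1 and TG2 and CTR1 in Sp5. Lgr5, the R-spondin receptor of pericentral hepatocytes, read -0.61, -0.54 and -0.71 in TG and -0.47, -1.46 and -1.48 in CTR, so CTR1 was the highest liver of all (difference 0.52). Tnfrsf19 (0.73), Notum (0.48), Tcf7 (0.31) and Apcdd1 (0.12) overlapped between groups, and Ccnd1, the cyclin D1 gene, differed by -0.01. Tcf7 came to -0.16 in the 12-array fit with the slide as a block and Apcdd1 to -0.25 without TG3.

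Glul, the glutamine synthetase gene and the sharpest pericentral marker, read 5.55, 5.93 and 6.02 in TG and 5.45, 5.44 and 5.50 in CTR in its brighter probe (difference 0.37, SE 0.19). Its second probe read 1.99, 1.74 and 2.25 against 1.70, 2.48 and 2.93, with the groups overlapping, so the probes disagreed. The pericentral list as a whole did not lean upward: 7 of its 20 genes were higher, against 66.6% of all genes. The list median was -0.10 (-0.16 with quantile normalization). The list members apart upward, 4 of 20 against 8.43% of all genes, were Tbx3, Axin2, Glul and Ahr, the dioxin receptor (difference 0.51). The drug-metabolizing members did not share this, as in Cyp2e1, which oxidizes ethanol, at 7.60, 7.44 and 8.07 in TG and 7.47, 7.91 and 7.91 in CTR. Cyp27a1, the sterol 27-hydroxylase, was apart downward at 3.01, 2.55 and 2.30 against 3.04, 3.33 and 4.01 (difference -0.84), with TG1 next to CTR1.

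The periportal list held 16 tested genes, 6 higher in TG, with a median of -0.07. Of all genes tested 66.6% were higher, 8.43% were apart upward and 2.85% downward. In the periportal list 3 were apart downward and none upward. Beside Aldh1b1 these were Hsd17b13, a lipid droplet enzyme, at 4.87, 4.86 and 4.92 in TG and 5.05, 5.44 and 5.64 in CTR (difference -0.50), and Ass1, the argininosuccinate synthase of the urea cycle. Ass1 read 6.76, 6.91 and 7.04 against 7.14, 7.08 and 7.37 (difference -0.29). CTR1 and CTR2 lay close to TG3 in that gene. In the wider urea and amino acid list 23 of 27 genes were lower in TG, with a median of -0.25 (-0.27 with quantile normalization), but 1 was apart. CTR3 was the highest liver in 14 of these 27 genes and CTR1 the lowest in 12, so the list differed among CTR livers too. Without CTR3 its median was -0.05.

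**Figure D3:**
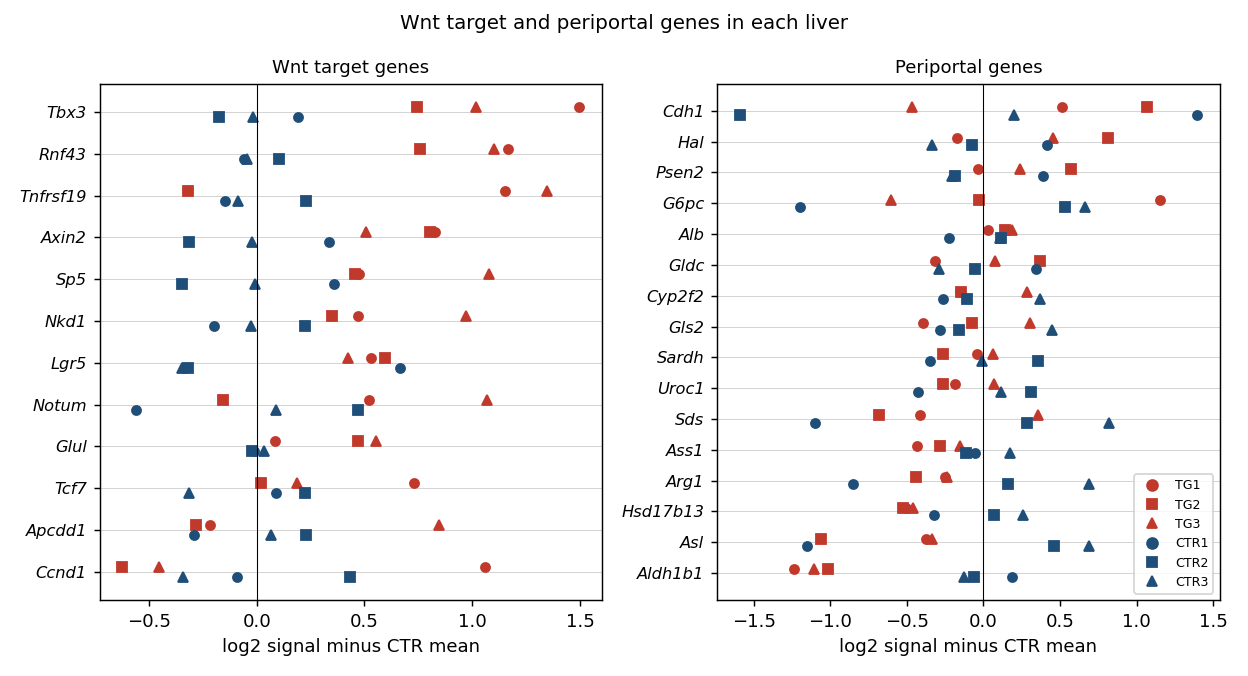
Log2 signal minus the CTR mean of the gene for 12 targets of Wnt signalling and 16 periportal genes, 1 point per liver (red TG, blue CTR; circles, squares and triangles are replicates 1, 2 and 3). TG points lie to the right of CTR points in 6 of the 12 targets and to the left in 3 of the 16 periportal genes; no gene passed the adjusted test.

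The lists of hepatocyte identity and secretion had medians near 0, below the 0.13 of all genes. Among 17 hepatocyte transcription factors and identity genes 8 were higher, against 66.6% of all genes, and 2 were apart upward and none downward. Their median was -0.08, with a span from -0.57 to 0.46. With quantile normalization it was -0.10, against 0.02 for all genes. Of 31 plasma protein genes none was apart upward and 3 were apart downward, against 8.43% and 2.85% of all genes. The plasma protein median was 0.06 (-0.04 with quantile normalization). F7, coagulation factor VII, read 3.00, 3.03 and 2.79 in TG and 3.51, 3.35 and 3.80 in CTR (difference -0.61). Itih1, a heavy chain that carries hyaluronan, read 3.40, 3.59 and 3.05 against 3.67, 4.26 and 4.69 (difference -0.86). F9, coagulation factor IX, read 2.65, 2.77 and 2.84 against 2.93, 3.04 and 3.11. Hamp, which encodes the iron hormone hepcidin, was apart upward at 6.75, 6.63 and 7.08 against 6.47, 6.13 and 6.19 (difference 0.56, SE 0.21). Fabp1, the liver fatty acid carrier, was apart upward as well, at 9.45, 9.86 and 9.51 against 9.12, 9.23 and 9.20 (difference 0.43). Cyp2b10, a drug-inducible cytochrome, read -3.46, -3.98 and -2.21 in TG and -3.30, -0.58 and -1.12 in CTR, with CTR1 among the TG livers (difference -1.55).

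Growth hormone target genes included pairs of opposite reading within a liver. Bcl6, a repressor that growth hormone holds down, read 5.25, 2.76 and 5.61 in TG and 2.80, 1.57 and 2.67 in CTR. Cish, a feedback inhibitor induced by growth hormone, read 1.26, 3.39 and 0.78 in TG and 4.02, 2.95 and 3.20 in CTR. TG1 and TG3 had high Bcl6 with low Cish, while TG2 lay within the CTR range in both, so the groups overlapped (differences 2.19 and -1.58). Without TG2 and CTR1 these came to 3.31 and -2.06. Insr, the insulin receptor gene, was apart upward at -2.94, -2.86 and -2.02 against -3.02, -3.45 and -4.17 (difference 0.94), with TG1 next to CTR1. On the authors' deposited scale it differed by 0.28. Its probe passed the detection filter through TG alone, with 2 of 3 CTR livers detected, a route that favours higher values in TG. The 19 genes of the whole list had a median of -0.03.

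Immediate early genes included members apart in both directions. Myc read -0.98, -1.42 and -1.41 in TG and -0.46, 1.58 and -0.04 in CTR, with CTR2 well above every other liver. The difference was -1.63, a second probe gave -1.69, and another, with CTR1 missing, -0.82. Ccn2, a matricellular target of YAP, read 0.48, 0.42 and 0.41 in TG and 0.73, 1.27 and 1.30 in CTR (difference -0.67). The TG livers were nearly identical in this gene. Egr2, a zinc-finger factor, read -2.98, -2.80 and -2.19 against -3.57, -3.29 and -3.40 (difference 0.76). The list of 21 had 9 genes higher and a median of -0.02, against 66.6% and 0.13 for all genes. In it 2 genes were apart upward and 2 downward, against 8.43% and 2.85% of all genes. Among 20 genes of the integrated stress and unfolded protein responses 13 were higher, close to the 66.6% of all genes. Nupr1, a small stress-induced nuclear protein, was apart upward. It read 1.62, -0.12 and -0.38 in TG and -0.74, -0.69 and -1.38 in CTR, with TG1 far above the rest. The difference was 1.31, and 0.69 without TG1.

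Ribosomal protein genes were the list with most members apart. Of 33 tested, 28 were higher in TG and 16 were apart upward, by 0.10 to 0.79, while Rpl3 and Rpl4 were apart downward. The shares over all genes were 66.6% higher, 8.43% apart upward and 2.85% apart downward. The list median of 0.21 compares with 0.13 for all genes, and with quantile normalization it was 0.17 against 0.02. Rps3 read 7.36, 7.42 and 7.37 in TG and 6.91, 6.80 and 7.03 in CTR (difference 0.47). Rpl30 read 5.61, 6.21 and 6.09 against 5.58, 4.87 and 5.09 (difference 0.79), with TG1 and CTR1 side by side. Rpl4 read 3.44, 3.51 and 3.43 against 3.56, 3.99 and 4.33. The members did not move as one. The list medians by liver, relative to the CTR mean, were 0.14, 0.22 and 0.29 in TG and 0.02, -0.07 and 0.06 in CTR. Many ribosomal protein genes have near-identical pseudogene copies that a probe may share.

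Of 34 genes of the mitochondrial respiratory chain tested, 27 were higher and 10 were apart upward, none downward, with a median of 0.16 (0.11 with quantile normalization). Over all genes 66.6% were higher, 8.43% were apart upward and the median was 0.13 (0.02 with quantile normalization). The list median thus lay near the general shift on the main scale only. It lay above the median of all genes with quantile normalization and in the authors' deposited table (0.17 against 0.02). Ndufb3, a subunit of complex I, read 5.62, 5.76 and 5.87 in TG and 5.17, 5.14 and 5.14 in CTR (difference 0.60). Its CTR values were nearly equal and every TG liver was higher. Atp5c1, the gamma subunit of ATP synthase, read 7.76, 7.74 and 7.72 against 7.48, 7.51 and 7.55. The per-liver medians of the list were 0.10, 0.17 and 0.26 in TG and -0.12, 0.13 and 0.01 in CTR, so TG1 lay below CTR2. Ppargc1a, the coactivator that drives mitochondrial genes and gluconeogenesis, was apart upward at 0.46, 0.36 and 0.73 against 0.10, 0.12 and -0.21 (difference 0.51). Among lipid enzymes, Acaca, the acetyl-CoA carboxylase of fatty acid synthesis, read -1.45, -2.31 and -1.71 in TG and -2.47, -2.87 and -3.23 in CTR (difference 1.04). Its other probes differed by 0.69 and 0.27. Stard4, a sterol carrier, was apart upward at 4.05, 3.73 and 3.92 against 3.35, 3.12 and 3.47 (difference 0.58).

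The mitotic program, which the series title names for stratified epithelia, did not lean upward as a whole list in liver. Of 47 mitosis genes listed 27 could be tested, as could 28 of 36 S phase genes; adult hepatocytes rarely divide. In mitosis 15 of 27 were higher in TG, against 66.6% of all genes. The median was 0.03 (-0.14 with quantile normalization), and 1 gene was apart. That was Smc4, a condensin subunit, at 1.31, 1.55 and 1.48 against 1.16, 1.19 and 0.91 (difference 0.36). Aurka, the Aurora A kinase, read -1.37, -1.57 and -1.53 in TG and -1.48, -0.67 and -1.32 in CTR. Plk1, the Polo kinase of mitotic entry, read -2.57, -2.88 and -1.77 against -2.57, -2.31 and -2.70. Both overlapped between groups. Nuf2, a kinetochore subunit, passed the detection filter through TG alone and had the highest difference of the list, 0.96, with overlapping groups, and on the authors' deposited scale 0.22. In S phase 10 of 28 were higher with a median of -0.10, and Mcm2, a helicase subunit, differed by -0.69. CTR2 was the highest liver in 12 mitosis and 13 S phase genes. Targets of p53 had 11 of 18 genes higher, none apart, and a median of 0.04 (-0.01 with quantile normalization). Cdkn1a, the cell cycle inhibitor p21, read -4.17, -1.69 and -3.23 in TG and -1.82, -1.12 and -2.25 in CTR, with TG2 among the CTR livers.

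Markers of other liver cells were measured in the same RNA, where fewer cells of a type and less RNA per cell cannot be told apart. Markers of sinusoidal endothelium and of Kupffer cells, the resident macrophages, were mostly lowest in 1 TG liver. TG1 was the lowest liver in 24 of 26 endothelial genes and in 19 of 22 Kupffer genes, against 3114 of all 21239 (14.7%). Stab2, the hyaluronan scavenger receptor of sinusoids, read 0.65 in TG1 and 1.64 to 1.80 in the other 5 livers. Adgre1, the F4/80 antigen, read 0.13 in TG1 and 1.31 to 2.68 elsewhere. The list medians by liver were -1.03 and -1.22 in TG1, against 0.06 and 0.61 in TG2 and 0.08 and -0.05 in TG3. In CTR1, CTR2 and CTR3 they were -0.01, -0.11 and 0.15 for endothelium and 0.35, -0.62 and 0.22 for Kupffer genes. The Kupffer list thus differed among the other livers too. TG2 was the highest liver in 15 of its 22 genes, against 18.1% of all genes. Across groups the endothelial median was -0.29 and the Kupffer median -0.24, and without TG1 these turned to 0.10 and 0.32. Tie1, an endothelial receptor kinase, was apart downward in all 3 TG livers, at -2.20, -1.78 and -1.68 against -1.46, -1.53 and -0.75 (difference -0.64).

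Of 18 lymphocyte markers tested, 7 passed the detection filter through TG alone, a route that favours higher values in TG. Of the 11 detected in all 6 livers 10 were higher in TG and none was apart, with a median of 0.40 against 0.08 for all genes so detected. Klrb1c, the NK1.1 receptor of natural killer cells, read -3.56, -3.01 and -2.87 in TG and -3.71, -4.40 and -5.33 in CTR (difference 1.34, 0.31 on the authors' deposited scale). The probe was dim and passed through TG alone. TG3, with most probes detected, was the highest liver in 12 of the 18 markers, and CTR3, with fewest, was the lowest in 10. The medians over all 18 were 0.47, 0.20 and 0.97 in TG and 0.31, -0.26 and -0.27 in CTR, so TG2 lay below CTR1. The part of detection in these values was not tested.

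Of 27 stellate cell and matrix genes tested, 24 were detected in all 6 livers. Of these 15 were higher in TG, close to the general share of 62.4%, with a median of 0.24. Timp2, an inhibitor of matrix proteases, read 1.56, 1.63 and 1.85 in TG and 1.24, 1.30 and 1.20 in CTR (difference 0.43). Col1a2, the partner chain of Col1a1 in type I collagen, read 1.19, 0.88 and 1.01 against 0.74, 0.57 and 0.18 (difference 0.53). Both were apart upward. Acta2, the smooth muscle actin of vessel walls and activated stellate cells, was apart downward in its brightest probe, at 0.78, 0.84 and 0.55 against 1.25, 1.28 and 1.75 (difference -0.71). Its other probes differed by 0.06 and -0.20.

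Across all 37 lists the medians ran from -0.35 to 0.55, 17 lay above 0, and 0 of the 781 memberships tested passed. TG2 and CTR1, livers of opposite genotype, shared the same high and low lists. They were the highest pair of the 6 livers in 18 of 22 acute phase genes, against 11.7% of all genes. The same held in 13 of 22 cholesterol synthesis genes, 14 of 26 interferon-response genes and 6 of 10 neutrophil genes. They were the lowest pair in 18 of 25 fatty acid synthesis genes, against 11.8% of all genes, in 18 of 29 genes of bile acid and xenobiotic metabolism, and in 10 of 16 core clock genes.

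**Figure D4:**
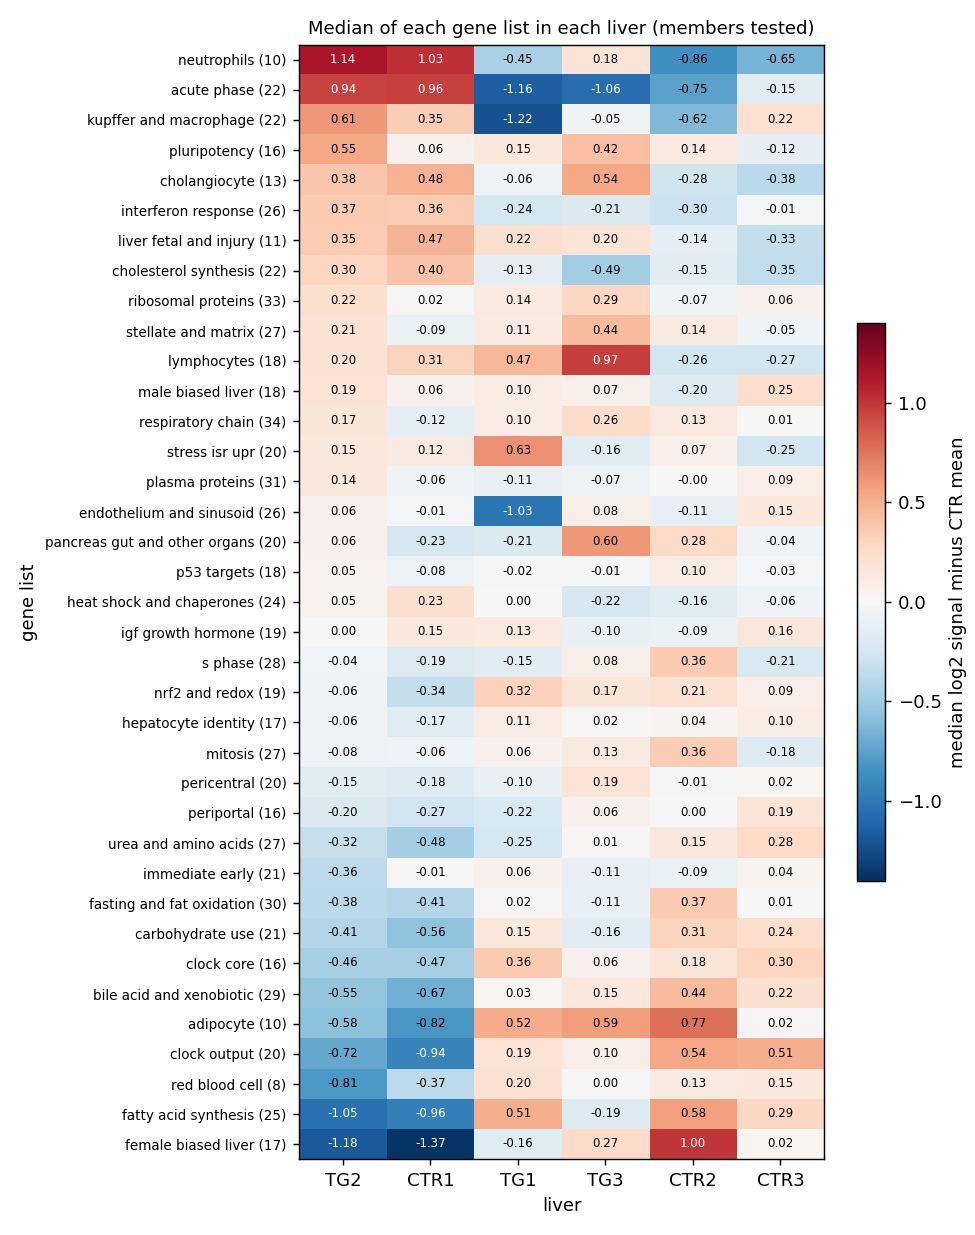
Median log2 difference from the CTR mean for each of the 37 gene lists (rows, ordered by the value in TG2) in each liver (columns); colour gives the log2 value from blue (low) to red (high). TG2 and CTR1, placed side by side, share the acute phase list at the high end (0.94 and 0.96) and the fatty acid synthesis list at the low end (-1.05 and -0.96), and TG1 is low in the endothelial (-1.03) and Kupffer (-1.22) lists.

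Acute phase genes, which hepatocytes switch on under interleukin-6 and related cytokines, showed the widest gaps. Saa1, serum amyloid A1, read 4.71, 10.23 and 4.22 in TG and 9.76, 3.94 and 7.58 in CTR. TG2 and CTR1 were high, CTR3 was intermediate, and the other 3 livers were low. Saa3 followed the same order at 2.04, 8.74 and 1.65 against 8.11, 1.22 and 4.95. Lcn2, the siderophore-binding lipocalin 2, read -4.27, 3.94 and -4.60 in TG and 4.31, -3.60 and -3.19 in CTR, with CTR3 among the low livers. Orm3, an orosomucoid, read -1.15, 4.51 and 0.16 against 3.94, -0.52 and 0.88. Mt2, the zinc-binding metallothionein 2, read 1.64, 7.01 and 0.97 against 6.06, 1.82 and 2.21. Socs3, the feedback inhibitor of interleukin-6 signalling, read 0.95, 2.74 and 0.51 against 3.66, 0.95 and 0.63. Stat3, its transcription factor, read 3.28, 4.16 and 2.88 against 4.16, 2.76 and 2.70. In each of these the pair stood above the remaining livers irrespective of genotype. Between the groups the list median was -0.31 with 1 gene apart, and without TG1 it was 0.17.

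Many clock genes split the same way. Period genes and their partners repress Clock and Arntl, and the arms peak at opposite times of day. Per1 read 1.99, -0.82 and 0.72 in TG and -1.43, 1.74 and 2.42 in CTR. Per2 read 0.66, -1.73 and 0.70 against -1.60, 0.99 and 1.27 in its brighter probe. Its second probe, detected in all 6 livers, read -0.78 in TG2, above -1.07 in TG1 and above CTR3. CTR1 was lowest there at -1.10, and the groups differed by 0.06, so the Per2 probes disagreed. Ciart, a circadian repressor, read 0.24, -4.30 and 0.44 against -3.83, 0.36 and 0.27. All 3 repressors were lowest in TG2 and CTR1, Per2 in its brighter probe only. Arntl, which encodes BMAL1, ran the other way at -3.46, -0.10 and -1.52 in TG and 0.19, -1.89 and -1.79 in CTR, and its partner Clock at 0.97, 1.81 and 0.91 against 1.68, 0.77 and 0.63. TG1 had the lowest Arntl. Usp2, a rhythmic deubiquitinase, read 0.88, -3.27 and 1.84 against -2.92, 2.11 and 2.50. Tef, a PAR-domain factor, read 3.72, 1.62 and 3.62 against 2.05, 3.68 and 3.42. Dbp, the related albumin promoter factor, read 4.42 in TG2, 4.78 in CTR1, 5.90 and 5.64 in CTR2 and CTR3 and up to 7.18 in TG1 and TG3. The group differences were -0.34 (SE 0.97) for Per2, -0.53 (SE 0.94) for Arntl, 0.76 (SE 0.76) for Dbp and 0.67 (SE 0.49) for Nr1d1, a heme receptor that represses Arntl. Per2 turned to 0.46 without TG2 and Arntl to 0.35 without TG1. Nr1d1 did not follow the pair, at 0.27, -0.11 and -0.03 in TG and 0.49, -0.95 and -1.43 in CTR. The hour at which each liver was taken is not given in the labels.

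Promoter windows of the clock genes were searched for known clock motifs. BMAL1 with CLOCK binds the E-box CACGTG, which is its own reverse complement, and DBP with its relatives binds the D-box TTATGTAA, searched on both strands as TTATGTAA and TTACATAA. RefSeq start sites on GRCm38.p6 gave windows of 250 bases upstream for 30 of the 38 clock genes on the array, with 46 starts. Of these 12 starts (26.1%) held CACGTG, against 6.02% of all 32851 windows, and 2 (4.35%) held the D-box, against 0.819%. The windows of Dbp, Nr1d1 and Arntl held neither. A match is a description of the letters and shows no binding in these livers. Genes with CACGTG did not all follow TG2 and CTR1. Tef and Per1 held it and were low in the pair. Ppp1r3c held it and was highest in CTR1 and TG2 (1.65 and 1.63), and Lonrf3 held it and was lowest in TG1. Usp2 and Rgs16 were low in the pair and held neither motif. A link between motif and reading was not tested. The 4 windows below are examples picked from genes low in TG2 and CTR1. They are shown 5′ to 3′ in the direction of transcription, ending at the start, with the motifs in capitals.
Ciart, chr3:95882229-95882478, minus strand, 3 copies of CACGTG at 116, 58 and 44 bases before the start: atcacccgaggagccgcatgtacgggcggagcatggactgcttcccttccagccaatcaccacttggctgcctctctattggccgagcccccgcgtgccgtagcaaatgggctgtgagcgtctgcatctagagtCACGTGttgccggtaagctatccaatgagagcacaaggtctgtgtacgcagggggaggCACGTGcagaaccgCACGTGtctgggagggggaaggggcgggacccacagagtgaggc
Coq10b, chr1:55052520-55052769, plus strand, TTACATAA 162 and CACGTG 78 bases before the start: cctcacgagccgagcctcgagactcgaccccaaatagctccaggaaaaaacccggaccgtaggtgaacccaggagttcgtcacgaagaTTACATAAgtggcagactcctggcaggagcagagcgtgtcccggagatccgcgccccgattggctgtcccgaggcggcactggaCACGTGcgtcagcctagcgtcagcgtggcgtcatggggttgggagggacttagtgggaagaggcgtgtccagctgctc
Cry1, chr10:85185055-85185304, minus strand, CACGTG 60 bases before the start: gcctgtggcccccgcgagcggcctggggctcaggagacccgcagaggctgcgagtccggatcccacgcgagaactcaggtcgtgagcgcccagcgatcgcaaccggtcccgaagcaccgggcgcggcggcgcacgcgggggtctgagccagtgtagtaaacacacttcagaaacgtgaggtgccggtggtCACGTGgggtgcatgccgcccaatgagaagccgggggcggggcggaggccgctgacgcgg
Per3, chr4:151044666-151044915, minus strand, TTATGTAA 205 and 158 bases before the start: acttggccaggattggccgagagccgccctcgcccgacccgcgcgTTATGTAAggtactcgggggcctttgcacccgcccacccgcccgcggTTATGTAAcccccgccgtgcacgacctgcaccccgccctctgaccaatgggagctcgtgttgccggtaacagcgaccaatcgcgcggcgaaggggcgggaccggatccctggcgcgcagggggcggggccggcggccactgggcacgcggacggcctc
Coq10b, a coenzyme Q-binding protein with a daily rhythm, read 2.90, 0.65 and 2.56 in TG and 0.37, 2.67 and 3.00 in CTR. Cry1, a cryptochrome repressor, read -3.51, -4.04 and -3.10 against -4.18, -2.51 and -2.61. Per3 read -3.11, -3.96 and -3.04 against -4.81, -2.42 and -2.30. With Ciart, these were lowest in TG2 and CTR1, by wide margins in Ciart and Coq10b and narrower ones in Cry1 and Per3. A second Cry1 probe read -4.25, -4.18 and -2.81 against -4.26, -2.67 and -2.21, with TG1 as low as the pair.

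Lipid synthesis genes completed the pattern. Thrsp, the Spot 14 regulator of lipogenesis, read 7.40, 4.04 and 7.05 in TG and 3.64, 8.22 and 8.29 in CTR. Elovl6, a fatty acid elongase, read 6.11, 3.02 and 4.77 against 2.83, 6.34 and 6.17. Fasn, fatty acid synthase, read 9.11, 7.25 and 8.32 against 7.16, 9.07 and 9.21. Low values again marked TG2 and CTR1, with TG3 between them and the rest in Elovl6. Insig2, which holds the sterol sensor in the endoplasmic reticulum and is induced by fasting, ran opposite at 3.77, 5.62 and 3.78 in TG and 5.84, 4.11 and 3.67 in CTR. Hmgcs1, of cholesterol synthesis, read 6.42, 7.60 and 6.08 against 7.56, 6.30 and 4.78. In these genes too the pair with high Insig2 held 1 liver of each genotype. Leaving out TG2 and CTR1 together, limma on the other 4 livers called 0 genes, and 1659 had p under 0.05 before adjustment, 1309 of them higher.

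**Figure D5:**
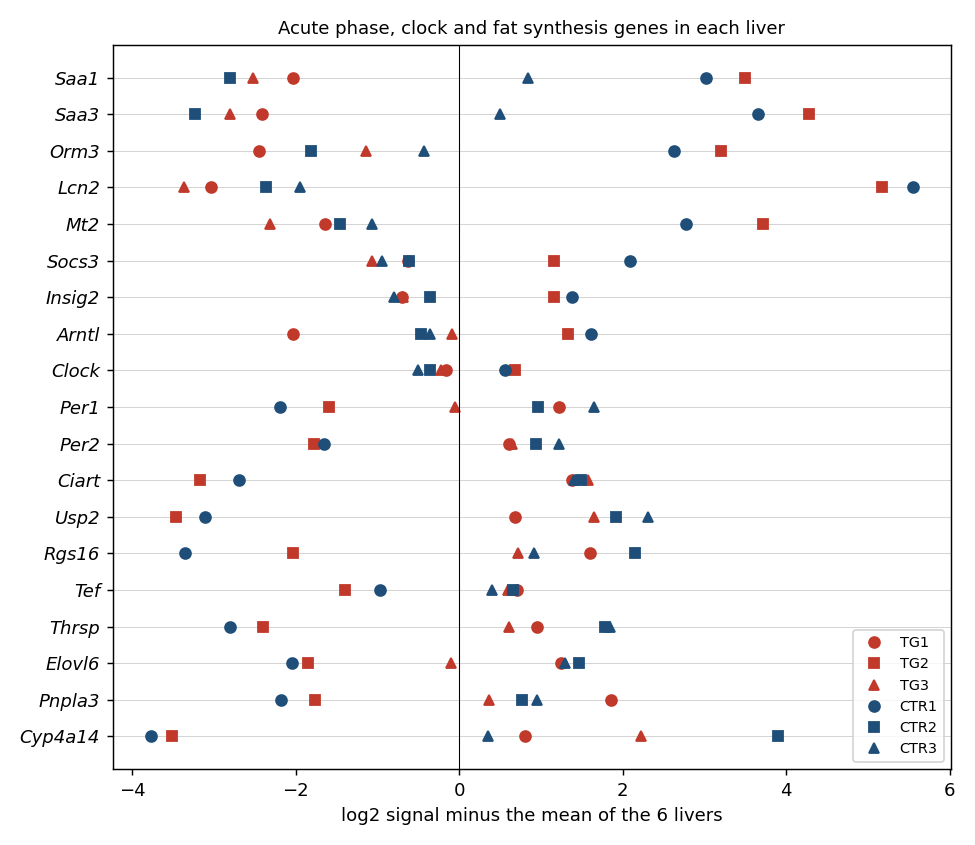
Log2 signal minus the mean of the 6 livers for 19 acute phase, clock and lipid genes, 1 point per liver (red TG, blue CTR; circles, squares and triangles are replicates 1, 2 and 3). TG2 and CTR1 sit together at the high end for acute phase genes, Insig2, Arntl and Clock and at the low end for the period and lipid synthesis genes, as in Saa1 (10.23 and 9.76 against 3.94 to 7.58) and Thrsp (4.04 and 3.64 against 7.05 to 8.29).

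CTR2 stood apart in another direction. It was the highest liver in 16 of 17 genes expressed more in female than male liver, against 12.5% of all genes. Cyp2b9, a cytochrome of female liver, read 3.46 in CTR2 and -1.09, -1.06, 1.00, -0.59 and 1.33 in TG1, TG2, TG3, CTR1 and CTR3. Cyp2b13, its neighbour in sequence, read 1.16 in CTR2 and -3.22 to -0.58 elsewhere, and the probes of these near-identical genes may share transcripts. Hsd3b5, a steroid reductase of male liver, was lowest in CTR2 at 2.49 and read 4.56 to 5.81 in the other livers. Over 18 male-biased genes CTR2 was the lowest liver in 7 and the highest in 2. Its Y-linked genes were detected. Between the groups 12 of the 18 male-biased genes were higher in TG, close to the 66.6% of all genes, with a median of 0.18, none apart. CTR2 was the highest in 19 of 30 fasting and fat oxidation genes as well. Cyp4a14, a fatty acid hydroxylase induced through PPARA, read 4.20, -0.11 and 5.63 in TG and -0.37, 7.30 and 3.75 in CTR. Cidea, a lipid droplet protein, read 0.48, -3.01 and 1.14 against -3.09, 3.79 and -0.22. TG2 and CTR1 were lowest and CTR2 highest in both, so neither followed genotype.

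TG1 and TG3 had readings of their own. Fgf21, the fasting and stress hormone of hepatocytes, read 3.93 in TG1, 1.08 in TG2, -0.89 in TG3 and 0.44, 0.94 and -0.54 in the CTR livers. Psat1, of serine synthesis, was high in the same liver, at -0.57 against -4.26 to -2.58 elsewhere. Sik1 was also highest there, at 0.10 against -3.50 to -1.75 elsewhere. Cabyr was high in TG1 and CTR3, at 0.35 and 0.06, and -3.83 to -2.30 in the other 4 livers. TG1 therefore set the upper end of several stress genes beside the lower end of the endothelial and Kupffer lists. In TG3 the genes farthest above the other livers were dim elsewhere: Plppr3 read -0.59 against -5.37 to -3.60 and Tulp1 -1.10 against -6.11 to -4.53. Cfd, the complement factor D or adipsin gene, read 1.14, -2.13 and 1.02 in TG and -4.82, 0.05 and 0.62 in CTR, low in TG2 and lowest in CTR1.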

How the data were processed

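RNA of the 6 livers was labelled with Cy3 (1 µg per array) and hybridised to Agilent design 14868. The scanner files, deposited by the authors, hold intensity values made with Feature Extraction 10.7.1.1, per the file headers. The deposited series table holds log2 values whose scale and centring are not stated; its columns correlated with the normexp and quantile values computed here at 0.998 or above, each with a median near 7.27, and the submitters' processing notes name limma. Fluorescence signals already corrected by the scanner software were turned to log2, the 75th percentile of each array was subtracted, 757 outlier spots on liver arrays were dropped, spots of a probe were averaged, and each gene took its brightest probe. RefSeq tables named 23374 probes (16535 genes); 17800 stayed unnamed. TG was compared with CTR by limma 3.58.1 (R 4.3.3) on the 6 livers, two-sided, with 4 residual degrees of freedom. Figures used Python 3.11.15 and matplotlib 3.10.9.

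The lists and members were chosen with earlier results of these data known, and lists are described by counts and medians with no test. Genes were named by rule: 9 always, the 10 smallest p in each direction, the largest gaps between groups, up to 4 members per list with its extremes, and 5 genes high and 5 low in each liver. The Wnt targets and the Y-linked check, and examples outside that rule, were chosen after their values were seen. On data simulated from these livers the same fit recovered 24%, 58%, 66% and 94% of genes changed by log2 1, 2, 3 and 4 (50 each), with 1 false call among 122. All sizes were simulated together and adjusted as 1 set, so these shares do not give the recovery where every change is small. The number of arrays limits the precision. Alternatives covered scaling, background, filters, probes, slide, replicate number, array weights and left-out livers. Same-numbered TG and CTR livers did not deviate together (correlations -0.21, -0.32 and -0.02), so the numbers were not used as pairs.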

Additional observations from a re-analysis of the deposited data

How the results depend on the processing

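No gene passed an adjusted p of 0.05 in the comparison as reported or in any of the 22 alternatives with a limma test; the smallest adjusted p was 0.269, without CTR1. The count at an unadjusted p under 0.05, 1089 as reported (855 higher and 234 lower), moved by over 1.5 times under several. It was 1769 (1303 and 466) in a fit of all 12 arrays, 1967 (1476 and 491) with the slide as a block, 1974 (1437 and 537) with the slide as a random block (consensus correlation 0.104, chosen after seeing the data), 2258 (1645 and 613) with array weights and 1659 (1309 and 350) without TG2 and CTR1. With the replicate number as a block it was 705 (597 and 108), no call appeared, and the numbers did not pair the livers. Leaving out 1 liver at a time gave 369 (303 and 66, without CTR3) to 2289 (1683 and 606, without CTR1); without TG3 it was 672 (406 and 266) and without TG1 371 were lower. Quantile normalization gave 413 higher and 397 lower, normexp with quantile 409 and 400, and values of the authors' table gave 375 and 376, so the share higher fell from 78.5% to 51.0% and 49.9%. Without a filter on dim probes 116 were lower, and with every probe tested 383. A random slide block within liver could not be fitted, since 1 slide held 2 liver arrays, and normexp ran on median spot signals.

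Among single genes, Alb (0.12) came to -0.024 with quantile normalization, -0.062 in the authors' table, -0.12 with the slide block and -0.0036 without TG2 and CTR1. Per2 (-0.34) ran from -1.25 to 0.46 over the left-out livers. Arntl (-0.53) came to 0.37 within the shared slide and 0.18 with array weights, and ran from -1.33 to 0.35 over the left-out livers. Tcf7 (0.31) came to -0.16 with the slide block and -0.033 within the slide. Apcdd1 (0.12) came to -0.020 with array weights and ran from -0.25 to 0.31 over the left-out livers. Ccnd1 (-0.01) came to 0.0023 with detected probes scaled, 0.013 with normexp, 0.14 in the authors' table and 0.26 without TG2 and CTR1, and ran from -0.54 to 0.30 over the left-out livers. For dim genes signal over background is the limit: 1700034I23Rik differed by 0 once values were raised to a common floor.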
